A study of Homo sapiens with 4 samples.

Results

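Away from the listed starts and ends of genes, BRCA2 was strongly enriched over input at 683 of the 15131 sites in the table. The cells were hTert-HME1, a human mammary epithelial line immortalised with telomerase, grown to log phase and crosslinked with formaldehyde. An antibody to BRCA2 gave 2 ChIP libraries, which were set against 2 libraries of input chromatin from the same line, with no treatment named in the labels for either group. All results come from 1 immortalised line, and the labels do not say whether the libraries came from separate cultures. The sites were chosen by their measured enrichment and their position: a site was taken when its mean log2 ChIP concentration exceeded its mean log2 input concentration by at least 2. It was dropped when any row placed it over a gene's start or end, around a whole gene, within 2000 bp of a start, or less than 2500 bp past an end. The 683 sites are called strong sites away below, and the 8033 sites in the same positions with smaller folds are called weaker sites away. Log2 folds of the weaker sites away ran from -0.82 to 1.99, so ChIP was not above input at every one.

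BRCA2 acts in homologous recombination, the repair of DNA breaks from an intact copy, and protects stalled replication forks. Enrichment of a protein inside genes or between them can fall at enhancers, at internal promoters and along transcribed gene bodies. Chromatin immunoprecipitation does not tell these apart. Chromatin pulled down with an unrelated antibody was not analysed, and material caught by the antibody through anything but BRCA2 cannot be told apart.

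Concentrations and FDR values below were taken unchanged from the authors' deposited table, and each log2 fold is the difference of 2 such concentrations. The table averages each group over its libraries, so library depth is unknown here and no spread between replicates could be computed. Fold and position chose these sites, and concentration and FDR belong to the same contrast, so those values are given as a description with no test. Positions of sites are on hg19.

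Being away from starts held for the outermost start listed for each gene, and some of the strongest sites lay, by gene length, where a shorter gene model begins. RefSeq gene lengths (GRCh38.p14) were set against the listed gene lengths, taking the gene's end as shared, with no coordinate carried between builds. Where those ends differ, the RefSeq start is misplaced and a site at it can be missed. Sites in genes of unknown listed length were not counted. The shares below therefore do not give how many of all strong sites away lay at RefSeq starts. Of 287 strong sites away that lay inside a protein-coding gene of known listed length, 14 (4.88%, 95% Wilson interval 2.93 to 8.02) had their centre within 2000 bp of the RefSeq start. Among weaker sites away the count was 93 of 2982 (3.12%, 2.55 to 3.81). With a log2 fold of at least 5, a split made after seeing the values, it was 4 of 12. Those 4 were GPR98, PARK7, VDR and MGRN1, with centres 40, 150, 276 and 263 bp from that start. The listed gene of PARK7, for example, spans 31215 bp and the RefSeq gene 23795 bp, a difference of 7420 bp, and the site began 7020 bp inside the listed gene. Further such genes were TMEM219, with a log2 fold of 4.30, SCARB1, a lipoprotein receptor, with 3.46, and FTH1, the ferritin heavy chain, with 3.13.

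The RefSeq promoters of these genes are shown because some of the strongest sites fell at them by gene length. Promoters run from 250 bp before to 50 bp after the RefSeq start on GRCh38.p14, and 3 of the 4 genes had an entry. Capitals mark GGGCGG on either strand, a motif of SP factors.
GPR98 (chr5:90558547-90558846, plus strand): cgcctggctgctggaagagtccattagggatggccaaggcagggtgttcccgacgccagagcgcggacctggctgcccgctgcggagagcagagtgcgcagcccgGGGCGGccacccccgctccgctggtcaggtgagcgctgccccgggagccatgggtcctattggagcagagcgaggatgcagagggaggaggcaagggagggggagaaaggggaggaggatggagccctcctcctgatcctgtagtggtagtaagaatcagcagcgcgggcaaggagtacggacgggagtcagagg
PARK7 (chr1:7961461-7961760, plus strand): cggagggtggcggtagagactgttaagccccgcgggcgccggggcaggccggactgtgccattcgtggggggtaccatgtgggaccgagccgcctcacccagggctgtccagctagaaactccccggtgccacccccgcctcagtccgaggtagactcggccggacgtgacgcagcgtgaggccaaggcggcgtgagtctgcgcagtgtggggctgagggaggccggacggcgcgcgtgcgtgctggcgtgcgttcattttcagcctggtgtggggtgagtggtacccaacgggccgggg
MGRN1 (chr16:4624576-4624875, plus strand): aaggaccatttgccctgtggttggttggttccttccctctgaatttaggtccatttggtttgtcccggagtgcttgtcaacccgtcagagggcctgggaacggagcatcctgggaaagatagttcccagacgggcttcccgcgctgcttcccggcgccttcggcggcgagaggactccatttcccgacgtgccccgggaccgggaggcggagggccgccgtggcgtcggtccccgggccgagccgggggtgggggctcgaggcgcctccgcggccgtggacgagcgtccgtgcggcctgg
GGGCGG was found once in the promoter of GPR98, listed in RefSeq as ADGRV1, and 58.5% of 15843 promoters of protein-coding genes held it. None of the 3 promoters held TGANTCA (AP-1), GGAATG (TEAD), CACGTG (E-box) or GGAAGT (ETS), each searched on both strands and found in 5.75%, 11.7%, 8.88% and 24.8% of those promoters. Their GC content was 67.0%, 70.3% and 68.3%, beside a median of 62.7% over all of them.

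The rule also left sites close to the inner side of a gene's end. Of the 434 strong sites away that lay inside a gene, 39 (8.99%, interval 6.64 to 12.0) had the end as the nearer boundary, less than 2500 bp away. For weaker sites away it was 267 of 4843 (5.51%, 4.90 to 6.19). PHLDA1, an early target of growth factor signalling, had a site 96 bp inside its end with a log2 fold of 3.33. A site 1009 bp inside the end of THBS1 had 3.83.

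BCL9, a coactivator of beta-catenin, had the largest log2 fold, 6.05, at chr1:147071486-147071985. In the authors' deposited table its ChIP concentration was 7.83 and its input concentration 1.78, the lowest input of the whole table. A site paired with ZNF630 and SPACA5 on the X chromosome had a concentration of 10.64 in ChIP and 4.84 in input, a log2 fold of 5.80, and the smallest FDR of the set, 1.74e-89. TMEM260 had a log2 fold of 5.44, at 9.77 in ChIP and 4.33 in input.

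PARK7, whose product responds to oxidative stress, had the highest ChIP concentration among the strong sites away, 11.02, against 5.68 in input. Its log2 fold was 5.34 and its FDR 2.29e-87. SOD2, the mitochondrial superoxide dismutase, had 10.00 in ChIP and 4.69 in input, a log2 fold of 5.31, at a site 69315 bp from its listed start. MGRN1, a ubiquitin ligase, had 10.80 in ChIP and 5.79 in input. MGRN1 and PARK7 thus had inputs above the set's median of 5.14, and BCL9 and SOD2 inputs below it.

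UIMC1, which carries the BRCA1-A complex to ubiquitin at breaks, had a log2 fold of 5.41, at 10.22 in ChIP and 4.81 in input. MAPK8IP1, a scaffold of the JNK kinases, had 5.40, and GPR98, an adhesion receptor also paired here with LYSMD3, had 5.37. FRMD6, a protein of the Hippo pathway, had 5.29, with a low input of 3.94 in the authors' deposited table.

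**Figure D1:**
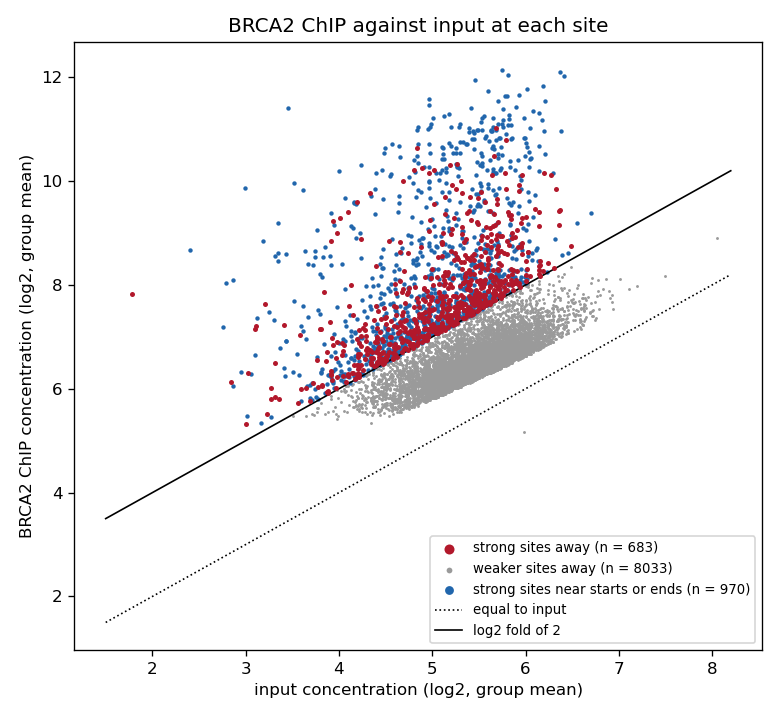
Mean log2 BRCA2 ChIP concentration against mean log2 input concentration, 1 point per site, for strong sites away (red), weaker sites away (grey) and strong sites near starts or ends (blue). Lines mark equality and a log2 fold of 2, and the lone red point at an input of 1.78 is BCL9.

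Strong sites made up 7.84% of the 8716 sites away from starts and ends, 15.1% of the 6415 sites near them, and 10.9% of all sites. The rule used this contrast. The median log2 fold was 2.43 (quartiles 2.17 and 2.94), a 5.39-fold enrichment, against 1.05 at weaker sites away and 2.80 at the 970 strong sites near starts or ends. A log2 fold from 2 to 3 was held by 521 of the 683, from 3 to 4 by 116, from 4 to 5 by 29, and of 5 or more by 17. Among strong sites near starts or ends, 142 reached 5. The authors' FDR was under 0.001 for 670 of the 683, and the largest was 0.048, at PDE4D.

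Median concentrations in the set were 7.65 in ChIP and 5.14 in input, against 6.52 and 5.46 at weaker sites away. An input under 4 was found at 46 strong sites away (6.73%) and at 19 weaker ones (0.237%). The rule subtracts input from ChIP, so it favours low inputs among strong sites, and this contrast is a description only. After BCL9, the lowest inputs in the set were 2.84 at RP11-371F15.3, 3.00 at POM121C, 3.03 at a site paired with LHB and RUVBL2, and 3.10 at TCF4. POM121C belongs to a family of near-identical copies, so how reads were divided there is uncertain.

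Just inside the fold threshold, FAM183B, XPNPEP1 and RP11-403H13.1 each had a log2 fold of 2.00. Just outside it, ZNF212, PKM and ID1 each had 1.99. At the distance threshold, PRKAG2, MIA3 and RP1-111C20.3 were kept at 2081, 2085 and 2101 bp, and RPH3AL, PIK3R3 and RP13-20L14.1 were dropped at 1982, 1976 and 1970 bp. PIK3R3, a regulatory subunit of PI 3-kinase, had a log2 fold of 5.40, so a large fold stands just past the distance limit.

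Some genes held several of the sites. Within 12.5 kb of another strong site away lay 48 of the 683 (7.03%, interval 5.34 to 9.19), in 22 groups, of which 19 held 2 sites, 2 held 3 and 1 held 4. The group of 4 lay inside HMGA2, an architectural chromatin protein of growing cells. Its log2 folds were 2.95, 4.23, 2.28 and 2.68, at 11729, 12238, 20432 and 21616 bp from the start. A further HMGA2 site at 57701 bp, with 2.47, was left out because another gene paired with it was near.

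MAOA, a monoamine oxidase, had log2 folds of 3.96, 2.74 and 3.24 at 60583, 61688 and 62467 bp from its listed start, and 5.36 at a site outside the set, at -1724 bp from that start. VDR, the vitamin D receptor, had 5.20 at 38027 bp, 2.74 at 46402 bp and 2.28 at 84367 bp. Its 4 other sites had between 0.89 and 1.14, and 3 of them lay between the second and the third strong site. TP73, a gene known to use an internal promoter for its shorter proteins, had 4.48 at 37701 bp, 2.55 at 64607 bp and 3.35 at 67455 bp, and no site near its listed start.

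THBS1, a matrix protein induced by growth factors, had log2 folds of 2.34 at 6104 bp and 3.83 at 16879 bp, with no site at its listed start. FSTL3, which binds activins, had 3.20 and 3.04, with input concentrations of only 4.40 and 3.93 in the authors' deposited table. The FDR values of these FSTL3 sites were 0.00169 and 0.000219. KDM6B, a histone demethylase, had 2.36 upstream and 3.05 inside the gene, and 3.35 over its start. Strong sites away paired with BHLHE40-AS1 had 2.47, 2.11 and 3.24, all upstream of that gene. A further upstream site, at -5834 bp with 2.56, was left out because another gene paired with it was near.

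**Figure D2:**
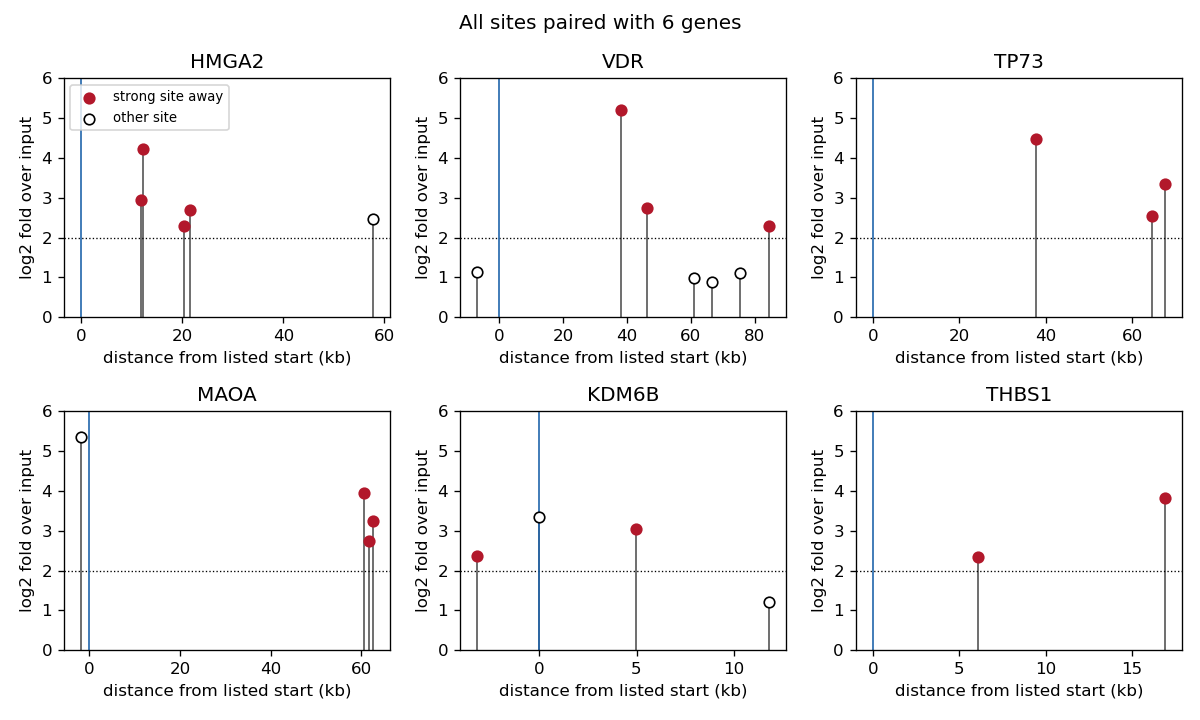
Log2 fold over input (vertical axis) of every site paired with HMGA2, VDR, TP73, MAOA, KDM6B and THBS1, by distance from the listed start in kb (horizontal axis, blue line at the start). Filled points are strong sites away, open points are other sites, and the dotted line is a log2 fold of 2; only MAOA and KDM6B have a site within 2 kb of the start.

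Neighbouring sites of any strength were then counted. Another site lay within 12.5 kb of 226 of the 683 (33.1%, interval 29.7 to 36.7) and of 2417 of 8033 weaker sites (30.1%, 29.1 to 31.1). Within 5000 bp it was 123 of 683 (15.3 to 21.1%) against 11.1% (10.4 to 11.8) at weaker sites and 18.2% at strong sites near starts or ends. Within 50 kb it was 66.9% of strong and 66.9% of weaker sites away.

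By position, 434 of the 683 lay inside a gene (63.5%, interval 59.9 to 67.1), 149 only upstream of the listed gene (21.8%) and 100 only downstream (14.6%). Weaker sites away were inside a gene at 60.3% (59.2 to 61.4). Inside a protein-coding gene lay 397 of the strong sites away (58.1%, 54.4 to 61.8) and 51.7% of the weaker ones (50.6 to 52.8). How much of the genome falls in each class was not analysed here.

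Distances to the nearest listed start overlapped widely. The median was 15142 bp at strong sites away (quartiles 7095 and 34498), against 16742 bp at weaker ones (7881 and 35737). A distance over 10 kb was found at 444 of the 683 (65.0%, interval 61.4 to 68.5) and at 67.9% of weaker sites (66.9 to 69.0). From 2 to 5 kb lay 15.7% of strong and 13.3% of weaker sites. Over 100 kb lay 40 strong sites, the farthest 472094 bp from a start, at OFCC1 with a log2 fold of 2.28. RNA5SP157 was next at 299393 bp with 2.54, and its input concentration was 3.27 on the log2 scale.

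**Figure D3:**
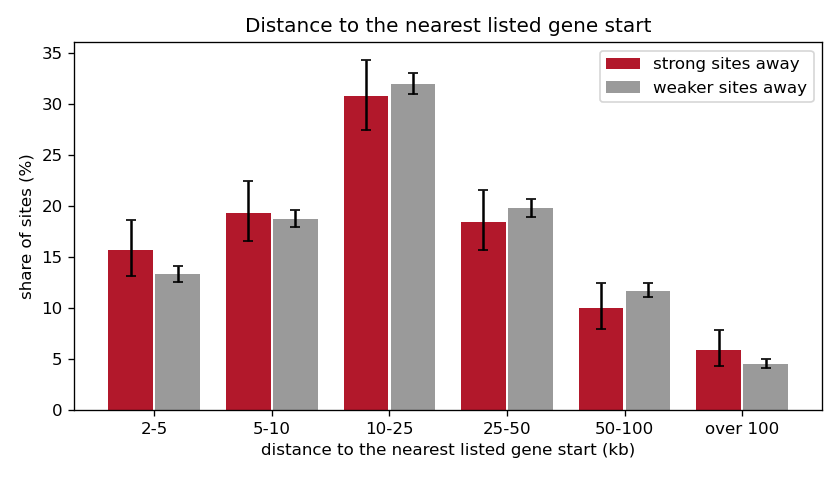
Share of strong sites away (red, n = 683) and of weaker sites away (grey, n = 8033) in each range of distance to the nearest listed gene start, in kb. Error bars are 95% Wilson intervals, which cover counting error only, and they overlap in every range.

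Most strong sites inside protein-coding genes lay in a gene with no site near its listed start, and so did most weaker ones. Start here means the outermost start listed for the gene. A site at the start of a shorter gene model, as at PARK7 by gene length, counts as inside. Of 397 strong sites inside protein-coding genes, 99 (24.9%, interval 20.9 to 29.4) lay in a gene that also had a site within 1000 bp of its start. Counting only sites with an FDR under 0.001, it was 14.6%. The share for weaker sites away was 920 of 4155 (22.1%, 20.9 to 23.4). In 109 of the 397 cases (27.5%) the strong site was the gene's only site, and the same share for weaker sites away was not analysed here. The start sites, the strongest where a gene had several, had a median log2 fold of 1.32, and 22 of the 99 reached 2. Of all 6415 sites near starts or ends, taken without that choice, 15.1% did. UIMC1 had 5.41 inside the listed gene and 0.99 at its listed start, and SOD2 5.31 and 2.11. CPEB4, an RNA-binding protein, had 4.83 inside and 0.73 at the listed start. COMMD6 had 4.71 inside and 5.02 at the listed start, and DPP9, a peptidase, 4.16 and 4.96, so both positions were strong in these genes. These 5 genes were chosen after their values were seen. Whether their inside sites lay at the start of a shorter gene model was not settled here, since the comparison of gene lengths can miss such sites. The values therefore do not set a gene's body against all of its starts.

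Lists of pathway genes and of markers of several cell types were set beside all protein-coding genes. Of those, 501 of 20056, or 2.50%, were paired with a strong site away. A strong site near a start or end was paired with 5.53% of all protein-coding genes. A gene can be paired with a site far from it, and long genes have more room for sites; the part of gene length in these counts was not tested. The median RefSeq gene length was 24.1 kb over all protein-coding genes. Weaker sites away were paired with 19.3% of all protein-coding genes, and with more of several lists, at 55.3% of the basal, 46.5% of the actin, 45.7% of the TGF-beta and YAP, 48.0% of the fragile site, 32.5% of the EGF receptor and 31.1% of the immediate early genes. Higher shares in these lists were thus found at weaker sites too. This did not hold for every list with a share of strong sites away above 2.50%. Weaker sites away were paired with 8 of 62 homologous recombination and Fanconi anemia genes (12.9%) and 4 of 21 fibroblast markers. For luminal markers it was 5 of 29 and for immune markers 3 of 21. All of these shares were below 19.3%, although the luminal and immune lists had only 1 gene each with a strong site away.

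Genes of basal epithelial cells and of their adhesion to the matrix were paired with such a site at 5 of 38 (13.2%). THBS1, at 3.83, is described above. TRIM29 had 3.18, DST, a hemidesmosome linker, 2.59, and ITGA3, a laminin-binding integrin, 2.07. The median length in this list was 37.0 kb. Luminal markers had 1 of 29, PRLR, the prolactin receptor, at 2.76.

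TGF-beta and YAP pathway genes had 5 of 35 (14.3%), with a median gene length of 80.6 kb. F3, the tissue factor that starts clotting, had 3.21 at 4743 bp inside the gene, and SMAD7, an inhibitor of the pathway, had 3.18 with an input of only 3.32. TGFBR3, a coreceptor, had 2.75, and TGFBI, a secreted target, 2.19 at 12055 bp upstream. EGF receptor and MAPK genes had 5 of 40 (12.5%). PHLDA1 led with 3.33, followed by CBL, a ubiquitin ligase of the receptor, with 2.49, SPRED2 with 2.15, ERRFI1, a receptor inhibitor, with 2.11, and ETS2 with 2.08.

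Actin and focal adhesion genes had 4 of 43 (9.30%). The site paired with VIM, the vimentin gene, had 4.27 and lay 13349 bp upstream of it, inside VIM-AS1. MYH9, a non-muscle myosin, had 3.05, TNS4, a focal adhesion protein, 2.81 and 2.14, and TNS1 2.13. Vimentin is also made by fibroblasts, whose marker list had 3 of 21 (14.3%), namely FN1, fibronectin, at 4.07, FBN1 at 2.50 and PRRX1 at 2.06. Immune markers had 1 of 21, CD79A at 2.08, at a site 5193 bp upstream of it. That site also lies inside RPS19, 498 bp from the end of RPS19.

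Homologous recombination and Fanconi anemia genes, the pathway of BRCA2 itself, had 5 of 62 (8.06%), with a median gene length of 49.9 kb. After UIMC1 at 5.41 came RAD51B, a recombination mediator, with 3.24 at 412666 bp and 2.08 at 730539 bp inside the gene. The second RAD51B site had an FDR of 0.00348. BRE, a subunit of BRCA1-A, had 2.50, and MRE11A, a nuclease that starts end resection, 2.11. RNF8, a ubiquitin ligase at breaks, had 2.05 at a site 29875 bp upstream of it, inside TBC1D22B. DNA replication genes had 1 of 50 (2.00%), MCM2, a helicase subunit, at 2.11, where 14.0% had a strong site near a start or end.

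Immediate early genes, which growth factors switch on within minutes, had 2 of 45 (4.44%), whereas 21 of the 45 (46.7%) had a strong site near a start or end. ZFP36, an mRNA decay factor, had 3.19 at 3572 bp upstream, and DUSP4, a MAPK phosphatase, 2.24 at 326 bp inside its end. These genes are short, with a median of 5.27 kb. Common fragile site genes, with a median of 1370 kb, had 3 of 25 (12.0%). ESRRG, an orphan receptor, had 4.93, PDE4D 2.25 with an FDR of 0.048, and LRP1B 2.05.

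**Figure D4:**
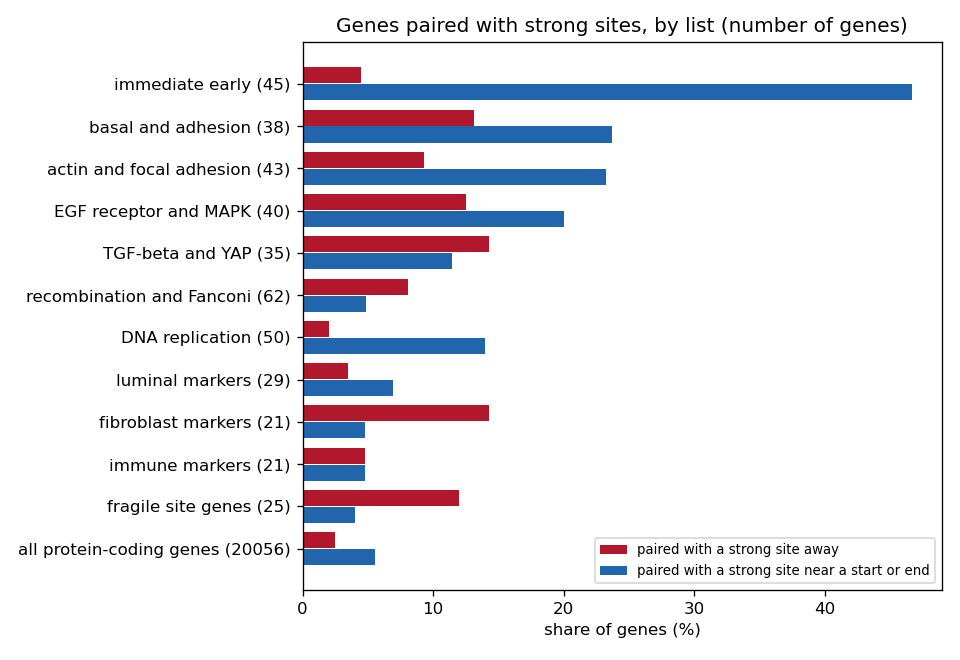
Share of the genes of each list paired with a strong site away (red) and with a strong site near a start or end (blue), in percent, with the number of genes in brackets. Immediate early genes have 4.44% and 46.7%, and all protein-coding genes 2.50% and 5.53%.

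Noncoding genes lay next to some of the sites. NEAT1, the RNA scaffold of paraspeckles, had a log2 fold of 3.87 at 4354 bp inside the gene, at 9.56 in ChIP and 5.69 in input. MALAT1, a nuclear speckle RNA, had 3.27 and 2.33 at 5063 and 20221 bp upstream. Of the 683 sites, 26 were paired with a microRNA gene, and 13 of those 26 genes lay within 10 kb of the site. How often other sites were paired with a microRNA gene was not analysed here, so these counts are a description only. The median log2 fold of all 26 was 2.32, and 4 of the 13 near ones had more than 3. RefSeq held 23 of the 26 genes. The mature microRNAs of those 4 are shown with their seed, bases 2 to 8, in capitals.
hsa-miR-21-5p: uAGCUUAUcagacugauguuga
hsa-miR-4301: uCCCACUAcuucacuuguga
hsa-miR-578: cUUCUUGUgcucuaggauugu
hsa-miR-4636: aACUCGUGuucaaagccuuuag
No 2 of them share a seed. The site of MIR21, a microRNA abundant in many epithelial tumours, lay 2804 bp past the hairpin, with a log2 fold of 3.87 at 8.0 in ChIP and 4.13 in input. MIR4301 had 4.06, at a site that also lies inside DRD2, and MIR578 had 4.42, at a site inside CPE with an input concentration of 3.21. MIR4636 had 3.22 at 5871 bp upstream.

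Chromosomes differed in how many of their sites away from starts and ends were strong. On chromosome 4 it was 31 of 107 (29.0%) and on chromosome 14 27 of 131 (20.6%), against 7.84% over all chromosomes. The X chromosome had 12.4% and chromosome 18 11.9%. Chromosome 10 was lowest, with 26 of 570 (4.56%). The median log2 input concentration at weaker sites away was 4.63 on chromosome 4, 5.00 on chromosome 14 and 5.94 on chromosome 10, and its part in these shares was not tested. As a share of its own group, chromosome 4 held 4.54% of strong sites away (interval 3.22 to 6.37) and 0.946% of weaker ones (0.757 to 1.18). Chromosome 10 held 3.81% (2.61 to 5.52) of strong and 6.77% (6.24 to 7.34) of weaker sites.

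**Figure D5:**
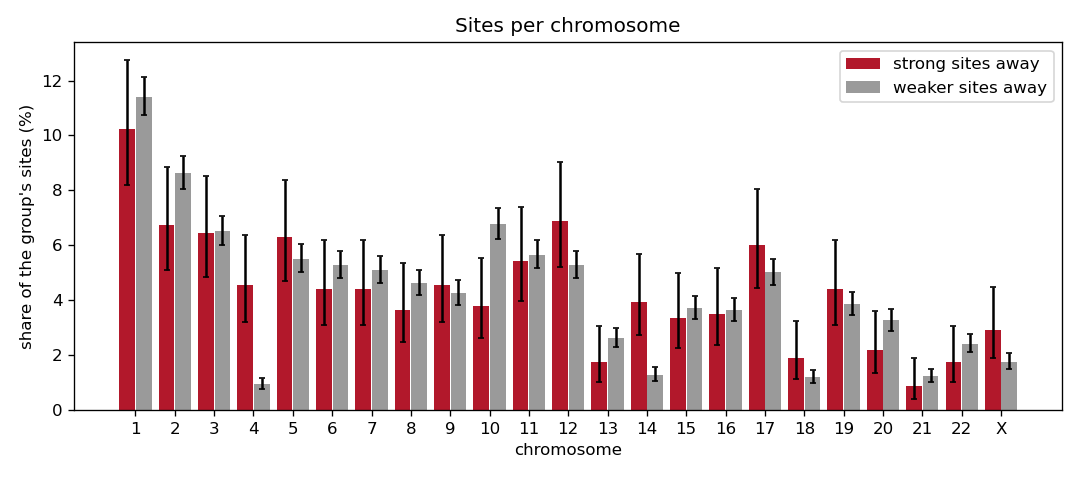
Share of strong sites away (red, n = 683) and of weaker sites away (grey, n = 8033) on each chromosome, in percent of the group, with 95% Wilson intervals. Intervals do not overlap on chromosomes 4, 10 and 14, where strong sites have the larger share on 4 and 14 and the smaller on 10.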

How the data were processed

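BRCA2 ChIP and input chromatin were each measured in 2 libraries. Per the submitters' processing notes, the build was hg19 and the tools included DiffBind, MACS2, Picard 1.92, SAMtools, Bowtie 1.1.1 and cutadapt 1.8.1; neither their sequence nor their parameters are listed. Both groups were compared with DiffBind, per the series' design text, whose scaling and model were not stated there.

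Per the file headers, the authors' deposited table gives mean log2 concentrations per group, a log2 fold, an FDR (a q-value, up to 0.05) and distances to listed genes. The deposited log2 fold and the difference of concentrations lay within 0.01 of each other. Distances run from the left edge of a site. Depth per library is unknown here.

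Sites were classed in Python 3.11.15 with pandas 2.3.3 and SciPy 1.17.1, on 23317 rows, and the steps were checked on simulated data. Gene rows were matched by Entrez ID, else by symbol or synonym, to 20056 protein-coding genes of RefSeq (GRCh38.p14), used for names, lengths and promoter and microRNA sequences. The comparison of gene lengths was added after seeing the data. Shares carry 95% Wilson intervals, for counting error only. No test was run: the table used here gives group means, and neither sites nor genes are replicates. The members and the 11 gene lists were chosen with earlier results of these data known. Named were the 10 largest folds, 5 smallest FDR values, groups within 12.5 kb, up to 4 genes a list, the 3 farthest sites, and 3 on each side of both thresholds; the text also names others, chosen after their values were seen. Alternatives changed the FDR, fold, distance, reach, start window and chromosomes. Site sequences on hg19 were not analysed here. Some genes counted in the lists and groups are not reported here by name.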

Additional observations from a re-analysis of the deposited data

How the results depend on the processing

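No paired analysis was possible because the table used here gives each group as a mean; leaving out a library could not be done for the same reason. The planned motif count in the sites was not run, since no hg19 sequence was used. The 683 strong sites away became 1714 at a log2 fold of at least 1.5, 162 at 3, and 444 beyond 10 kb from a start; they were 670 at an FDR under 0.001 and 681 by the authors' own fold. At a log2 fold of at least 3, 72.2% lay inside a gene, the median distance to a start was 13265 bp, 2.47% lay in groups, and 14 list genes were paired, against 57 at 1.5 and 35 as reported. Beyond 5 kb or 10 kb from a start the median distance became 19109 bp or 26923.5 bp and the grouped share 5.21% or 4.73%, as fewer near sites were left in. A reach of 5 kb or 50 kb gave a grouped share of 4.25% or 11.6%. The share of genes with a start site was 14.6% at an FDR under 0.001, where weak start sites are left out, and 31.5% with a 3 kb start window. Without chromosomes 4, 10, 13, 14, 18 and X, 554 sites were left, with 64.3% inside a gene, a median distance of 14067 bp and 7.04% in groups. Of 66 values for single lists, 43 stayed within 1.5 times the reported count and 23 did not.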

Other observations

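Beyond the groups within 12.5 kb, several genes were paired with 2 strong sites farther apart. PHLDB2, which links adhesions to microtubules, had log2 folds of 4.54 and 3.15, ABLIM1, an actin-binding protein, 3.85 and 2.10, and KIF6, a kinesin, 3.47 and 3.03. FIP1L1, a polyadenylation factor, had 4.01 and 2.58, at 536818 and 689552 bp from its listed start. The second of these sites was also paired with CHIC2. SHANK2 had 2.92 and 2.15, ITPK1 2.91 and 2.26, BCAR3 2.33 and 2.10 among 9 sites in all, and MAGI1, a junction scaffold, 2.24 and 2.17. These genes were chosen after their values were seen.

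Gene starts listed at any row were also set against the strong sites away. Of the 683, 4 (0.586%) had an edge within 2000 bp of a start that the table lists, against 108 of 8033 weaker sites (1.34%).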
